A study of Mus musculus with 3 samples.

Results

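Ccl5-expressing CD4 T cells are helper-lineage T cells that carry the chemokine transcript Ccl5, which in resting naive helper cells is largely silent. Here they were taken as barcodes with 500 or more UMIs (unique molecular identifiers, each standing for 1 captured transcript), 250 or more detected genes and mitochondrial genes at no more than 10% of UMIs. They further held at least 1 UMI of Cd3d, Cd3e or Cd3g, at least 1 of Cd4, none of Cd8a, Cd8b1 or Foxp3, at most 1 of Cd79a, and 3 or more of Ccl5. Of 31064 barcodes past the quality limits, 151 met this rule: 26 of 9147 in the young library, 57 of 10204 in the aged library and 68 of 11713 in the aged+AA library.

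The study profiled peripheral blood mononuclear cells of C57BL/6 mice, the common inbred laboratory strain, by droplet single-cell RNA sequencing. It held 1 library of young mice given PBS, 1 of aged mice given PBS and 1 of aged mice given AA for 1 month, where the series title gives AA as ascorbic acid (vitamin C). The age of the mice in weeks and the number of mice behind each library are not given in the sources used here. With 1 library per group there is no replicate check, so no test between libraries was made, and every interval below covers counting error alone.

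CCL5 is a chemokine that draws T cells, monocytes and other leukocytes, and it is made by effector and memory T cells and by natural killer cells. Most CD4 T cells help other cells through cytokines and through CD40 ligand, but some acquire a killing programme: perforin opens the target membrane, granzymes are proteases delivered through it, and NKG7 sits in the membrane of the lytic granules. The transcription factors Eomes, T-bet (Tbx21) and Runx3 are known to drive this programme in CD8 T cells. Repeated stimulation can also lead T cells to express inhibitory receptors such as PD-1 (Pdcd1), LAG-3, TIM-3 (Havcr2), TIGIT and CTLA-4, a state called exhaustion when it comes with loss of function.

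The 3 libraries held between 64496639 and 94944551 UMIs over all barcodes, and the kept barcodes had median depths of 4548, 3724 and 4109 UMIs; here and below, values in threes follow the order young, aged, aged+AA. The Ccl5-expressing CD4 T cells had medians of 7298.5, 4174 and 4331.5 UMIs, against 4775, 4274.5 and 4619.5 in the CD4 T cells of the same gate without a Ccl5 UMI, which serve below as the comparison (989, 444 and 466 cells). The young cells were therefore the deepest. Their share of conventional CD4 T cells in each library, and the share with Ctla4, are also given after thinning each cell to 2000 UMIs. Other shares of cells with a UMI are given at full depth, so depth can enter where they are compared across libraries. The libraries shared 27 to 33 barcode sequences in pairs. Of the 151 cells, 1 aged cell carried a barcode that also occurred in another library, and none shared its barcode with another of the 151. A total of 5, 1 and 5 of these cells were predicted doublets, and they were kept.

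Ccl5 was not spread evenly over the CD4 T cells. In the young library 989 conventional CD4 T cells had no Ccl5 UMI, 49 had 1, 3 had 2, 2 had 3 and none had 4, while 20 had 20 or more. In the aged library 82 cells had 1 UMI, 10 had 2, 5 had 3 and 4 had 4, and 31 had 20 or more. In the aged+AA library 155 cells had 1 UMI, 36 had 2, 6 had 3 and 3 had 4, and 45 had 20 or more. The rule thus fell in a thinly filled stretch of the distribution in the young library and in a fuller one in the aged+AA library. The chosen cells had medians of 63, 29 and 33 Ccl5 UMIs with highest values of 278, 295 and 327. Ccl5-expressing CD8 T cells (310, 562 and 1309 cells with a Cd8a or Cd8b1 UMI, no Cd4 and 3 or more Ccl5 UMIs) had medians of 26, 80.5 and 74. The Ccl5 values describe the choice and support nothing further. B cells, which should lack Ccl5, reached 3 UMIs in 0.648%, 0.761% and 1.14% of cells at median depths of 3505, 3234.5 and 3638 UMIs.

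**Figure D1:**
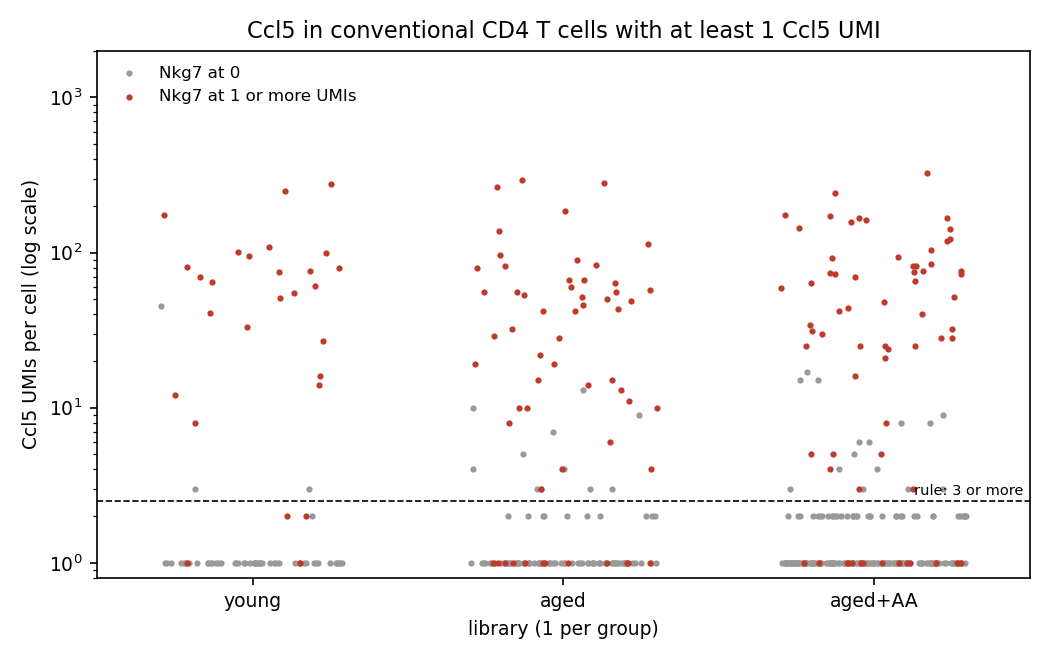
Ccl5 UMIs per cell on a log scale for each conventional CD4 T cell with at least 1 Ccl5 UMI, by library; each point is 1 cell, red where it had an Nkg7 UMI and grey where it had none, and the dashed line marks the rule of 3 or more. Cells with 50 or more Ccl5 UMIs were all red, and cells with 1 or 2 were mostly grey.

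The CD4 label was checked first, because a single stray Cd4 UMI is enough to pass the gate: 14, 40 and 38 of the cells had exactly 1 Cd4 UMI. Among T cells with 3 or more Ccl5 UMIs and no Cd8 UMI, a Cd4 UMI was found in 13.3% (8.90 to 18.9), 19.3% (15 to 24.3) and 14.3% (11.3 to 17.8). Among T cells with 3 or more Cd8 UMIs and as much Ccl5, which should lack Cd4, it was found in 2.36%, 1.74% and 2.02%, although these cells were deeper (medians of 8108, 6211 and 7651 UMIs against 4944, 4334 and 4538). Among T cells with neither a Cd8 nor a Ccl5 UMI it was found in 32.5%, 43.9% and 37.0%. The Cd4 UMIs were thus several times more frequent than the background in Cd8 cells, which was not 0. They were less frequent than in T cells without Ccl5. How many of the chosen cells passed the gate by a stray Cd4 UMI was not tested. Cd40lg, the helper T-cell ligand for CD40 and no part of the rule, was found in 15.4%, 19.3% and 27.9% of the Ccl5-expressing CD4 T cells, close to the 14.9%, 20.9% and 24.2% of CD4 T cells without Ccl5. It was found in 1.29%, 0% and 0.688% of the Ccl5-expressing CD8 T cells, where 0 of 562 cells allows up to 0.534%. Icos, a costimulatory receptor, separated the sets less, with 8 of 26, 29 of 57 and 34 of 68 of the chosen cells, 27.6%, 35.8% and 34.3% of CD4 T cells without Ccl5 and 21.3%, 16.4% and 20.2% of the CD8 cells. By Cd40lg alone the chosen cells stood with the CD4 T cells and not with the CD8 T cells. The summed list of 8 CD4 T-cell markers, which holds Cd4 and Cd40lg, lay below CD4 T cells without Ccl5 and above the CD8 cells. In CPM (defined below) it was 3717, 3230 and 3914 in the chosen cells and 4027, 3767 and 4212 in CD4 T cells without Ccl5. In the CD8 cells, which were chosen to lack Cd4, it was 2463, 2355 and 2414.

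Of the markers given with the label, Nkg7 was found in most of these cells and Eomes in few. Nkg7 was found in 23 of 26, 46 of 57 and 53 of 68 cells, and Eomes in 5, 8 and 9. All 22 cells with Eomes also had Nkg7. Among the Ccl5-expressing CD8 T cells Eomes was found in 24.2%, 40.9% and 37.1%. In CD4 T cells without Ccl5 it was found in 5 of 1899. The name Ccl5-expressing CD4 T cells therefore follows the rule alone, and Eomes marked a minority of the 151. Whether the name fits the barcodes with genes of other lineages, described next, was not tested.

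Some of the 151 barcodes also held transcripts that define other lineages. A total of 10 young, 11 aged and 14 aged+AA barcodes had a UMI of Ncr1, Klrb1c or Trdc (natural killer and gamma-delta T-cell genes), or at least 10 UMIs over 9 natural killer markers, or at least 20 over the monocyte, neutrophil or B-cell markers. Of these 35, 20 had Klrb1c, 9 had Ncr1 and 8 had Trdc, 18 reached 10 UMIs of the natural killer list, which includes the myeloid genes Tyrobp and Fcer1g, and 3 reached 20 UMIs of monocyte markers. The summed natural killer markers stood at 875, 901 and 715 CPM (UMIs per 1000000 UMIs of the cell set) over all the cells. In the other 116 they stood at 0, 86.2 and 0 CPM. That choice sets Ncr1 and Klrb1c to 0 and keeps the 9 markers together under 10 UMIs in each barcode, so it limits this sum. All 8 platelet markers were at 0 in the young and aged+AA cells, and 2 of 8 had a UMI in the aged cells. The 35 barcodes had median depths of 9457.5, 7669 and 7482 UMIs, against 5247, 4006 and 4100.5 in the other 116, and 8 of them were predicted doublets. Whether they are doublets, other T cells or killer-receptor-bearing CD4 cells was not tested. The main shares and part of the gene counts are given with and without them, and the other values with them alone.

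The first question of the design, what differs with age, starts with how many of these cells there were. They made up 2.44% (95% exact binomial interval 1.60 to 3.55) of 1067 conventional CD4 T cells in the young library and 9.61% (7.36 to 12.3) of 593 in the aged library, a ratio of 3.94 (exact conditional interval 2.44 to 6.54). For the effect of AA, the aged+AA library had 9.38% (7.36 to 11.7) of 725 cells, a ratio to the aged library of 0.976 (0.676 to 1.41). By counting error alone, the young interval did not overlap either aged interval, and the aged and aged+AA intervals overlapped almost whole. These intervals hold no spread between mice or libraries. Ccl5-expressing CD8 T cells made up 14.6% (13.1 to 16.1), 57.9% (54.7 to 61.0) and 52.3% (50.3 to 54.2) of all CD8 T cells. The higher share in the aged libraries was thus not confined to CD4 T cells. Among CD8 T cells the aged and aged+AA intervals, again of counting error alone, did not overlap. For the CD4 cells, without the 35 barcodes with genes of other lineages, the shares were 1.57%, 8.30% and 8.01%. After thinning to 2000 UMIs they were 1.85%, 7.34% and 6.52%. With at least 2 Cd4 UMIs required, which left 12, 17 and 30 cells, the shares were 4.38%, 7.69% and 12.2%, so that the ratio of aged to young fell to 1.76 and that of aged+AA to aged rose to 1.59.

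The denominator mattered because the libraries differed in their makeup. As a share of all T cells they were 0.457%, 2.17% and 1.39%, and as a share of all kept barcodes 0.284%, 0.559% and 0.581%. T cells were 62.2%, 25.7% and 41.8% of the kept barcodes, and the gate caught 1067 conventional CD4 T cells in the young library and 593 in the aged one. The number of cells caught in a library cannot be told apart from the number in the blood. Free RNA is a further difference: barcodes with fewer than 100 UMIs held 1168, 1855 and 3264 CPM of Ccl5, and its part in the shares was not tested beyond the B-cell values above.

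**Figure D2:**
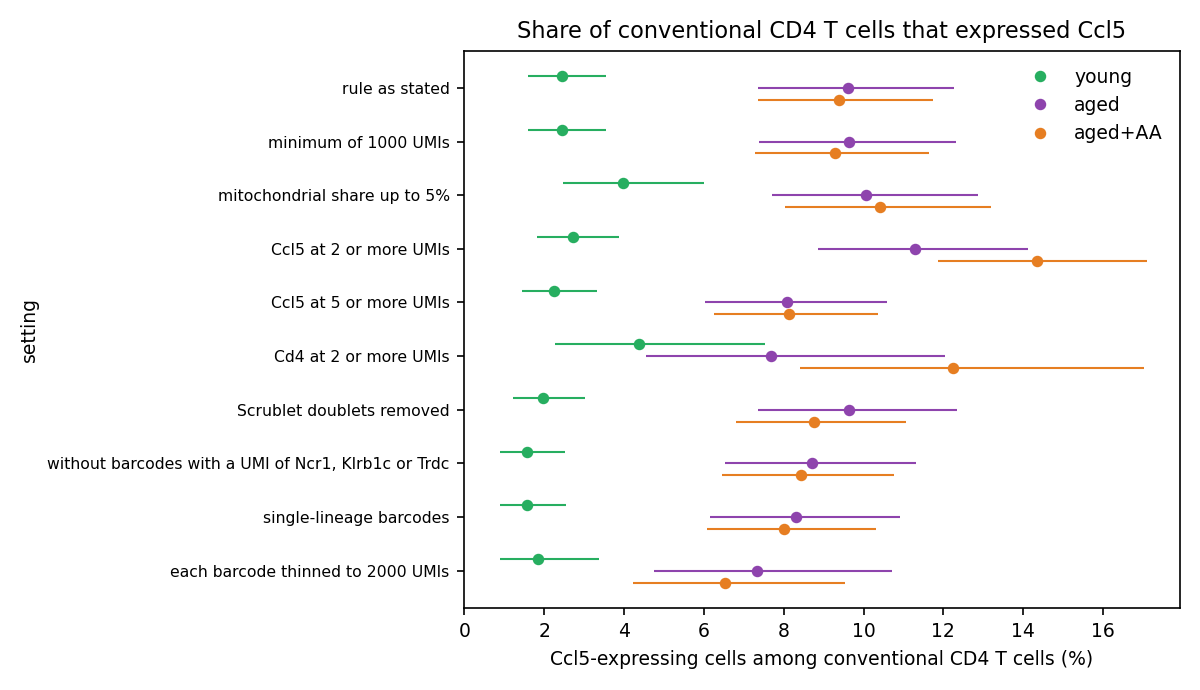
Share of conventional CD4 T cells with 3 or more Ccl5 UMIs (or the minimum named on the axis), in percent, under each setting; points are libraries, with 1 library per group, and lines are exact binomial intervals for counting error. The young library was lowest at every setting, by least where 2 Cd4 UMIs were required (4.38% against 7.69% and 12.2%).

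Among the cytotoxic genes, Nkg7 was found in most of these cells, and 29 of the 151 had none. It was found in 88.5%, 80.7% and 77.9% of them, against 1.52%, 6.98% and 5.15% of CD4 T cells without Ccl5, 1.75%, 3.23% and 3.63% of B cells and 98.7%, 99.6% and 97.9% of Ccl5-expressing CD8 T cells. Its level was 916 CPM against 3.82 in the young library, 1086 against 31.3 in the aged library and 1306 against 26.4 in the aged+AA library, ratios of 240 (150 to 406), 34.6 (26.6 to 45.6) and 49.4 (37.9 to 65.5). The share with Nkg7 was 87.5%, 78.3% and 77.8% without the 35 barcodes. The share in CD4 T cells without Ccl5 was within a few percentage points of that in B cells, and the share in the chosen cells was far above both. Ctsw, a cathepsin of cytotoxic lymphocytes, came next with 61.5%, 50.9% and 47.1%, against 11.7%, 8.78% and 15% without Ccl5 and 80.6%, 78.3% and 85.9% of the CD8 cells. Fasl, the death ligand, was found in 34.6%, 26.3% and 29.4%.

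Nkg7 (ENSMUSG00000004612, chr7:43437073-43438249 in the GENCODE M21 annotation of GRCm38) and Gzmk (ENSMUSG00000042385, chr13:113171608-113225908) are the cytotoxic genes that the results below turn on. The 250 bases before their RefSeq start sites in GRCm38.p6 are shown to let the reader see both regulatory sequences, at chr7:43436888-43437137 on the plus strand and chr13:113180966-113181215 on the minus strand, 5′ to 3′. Capitals mark matches to the T-box half-site GTGTGA, the core bound by Eomes and T-bet, or to the RUNX site ACCACA, each searched on both strands.
Nkg7: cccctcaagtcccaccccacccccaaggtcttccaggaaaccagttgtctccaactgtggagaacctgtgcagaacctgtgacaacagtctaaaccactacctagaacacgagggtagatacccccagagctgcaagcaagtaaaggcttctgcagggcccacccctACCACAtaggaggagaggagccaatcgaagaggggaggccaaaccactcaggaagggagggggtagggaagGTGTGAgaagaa
Gzmk: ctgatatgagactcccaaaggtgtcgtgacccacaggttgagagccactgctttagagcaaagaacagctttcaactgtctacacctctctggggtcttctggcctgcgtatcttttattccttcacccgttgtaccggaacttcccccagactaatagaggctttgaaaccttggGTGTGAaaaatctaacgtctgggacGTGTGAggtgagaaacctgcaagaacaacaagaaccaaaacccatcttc
The Nkg7 window held 1 T-box and 1 RUNX match, and the Gzmk window 2 T-box matches and no RUNX match. The Eomes window, also searched and not shown, held neither match. Of 32851 windows of the same length, 12.3% held the T-box letters and 14.0% the RUNX letters. These are matches of letters, not bound sites.

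The granule proteases were found in far fewer cells, and few cells held most of their UMIs. Gzma, the tryptase granzyme, was found in 7, 13 and 13 cells, with 220, 167 and 307 UMIs. The 3 richest cells held 85.9%, 83.2% and 57.3% of those UMIs. The 10, 11 and 12 barcodes with natural killer, gamma-delta or myeloid genes held 98.6%, 68.9% and 61.2% of the Gzma UMIs, 94.1%, 38.9% and 65.5% of the Prf1 (perforin) UMIs and 96.6%, 15% and 77.8% of the Gzmb (granzyme B) UMIs. In the 116 barcodes without genes of other lineages, Gzma was found in 12.5%, 21.7% and 13%, where CD4 T cells without Ccl5 stood at 1.82%, 4.05% and 3.65% and B cells at 1.95%, 3.67% and 2.65%. Gzmb was found there in 1 of 16, 9 of 46 and 8 of 54 cells.

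Gzmk, which encodes granzyme K, went the other way. It was found in 5 young cells with 5 UMIs, 13 aged cells with 38 and 16 aged+AA cells with 60, that is in 19.2%, 22.8% and 23.5% of cells. The barcodes with natural killer, gamma-delta or myeloid genes held 0%, 10.5% and 0% of these UMIs. Natural killer cells themselves had Gzmk in 0.844%, 0.444% and 1.21% of cells, and CD4 T cells without Ccl5 in 0.101%, 4.28% and 1.29%. In the aged+AA library the level was 167 CPM against 2.56, a ratio of 65.5 (28.4 to 186), and in the aged library 121 against 16.6, a ratio of 7.29 (4.5 to 11.8). Gzmm (granzyme M) was found in 7.69%, 5.26% and 10.3% of these cells and in 22.9%, 24.4% and 39.1% of Ccl5-expressing CD8 T cells.

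Counted per cell, 75 of the 151 cells had no UMI of Gzma, Gzmb, Gzmk, Gzmm or Prf1 (11 of 26, 27 of 57 and 37 of 68), 35 had 1 of the 5 genes, 26 had 2 and 15 had 3 or more. Of the CD4 T cells without Ccl5, 91.0%, 89.0% and 89.1% had none. Of the Ccl5-expressing CD8 T cells 47.1%, 29.7% and 29.6% had none, against 42.3%, 47.4% and 54.4% of the chosen cells. At the depth of these cells a missing UMI does not show that a gene is silent.

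Over the cytotoxic list of 24 genes, 14, 12 and 16 had at least 50 counts over both cell sets, and the ratio of Ccl5-expressing to Ccl5-negative CD4 T cells was past 2-fold higher for 7, 5 and 10 of them and past 2-fold lower for none. Over all genes tested 10.9%, 3.49% and 5.94% were past 2-fold higher. The median log2 ratio of the list was 1.03, 0.80 and 1.67, against 0.29, 0.15 and 0.20 over all genes. With a minimum of 20 counts the medians were 1.81, 1.62 and 2.02. A low gene passes either minimum only where it is high in 1 of the sets, and the part of this in the medians was not tested. Without the 35 barcodes the aged median was 0.89 and the aged+AA median 0.92, and the young cells were too few. Among the genes past 2-fold were those of the granules (Nkg7, Gzma and Ctsw in each library and Gzmk, Gzmb and Prf1 where tested), while Srgn, the granule proteoglycan that naive T cells also make, was at 1098, 1134 and 1066 CPM against 850, 1032 and 943.

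Set beside the Ccl5-expressing CD8 T cells, the cells shared part of the cytotoxic programme and differed in named genes. Gzmm was lower in all 3 libraries (ratios of 0.224, 0.288 and 0.146), and so was Cst7, the granule cystatin F (0.322, 0.438 and 0.290). Crtam, an adhesion receptor of activated killer T cells, was lower in the aged and aged+AA libraries (0.147 and 0.100), and at 0 UMIs in the chosen young cells. Gzmk was at 1.43 (0.990 to 2.01) times the CD8 level in the aged library and 4.04 (3.03 to 5.31) times in the aged+AA library. Over the cytotoxic list 3 of 17, 2 of 23 and 5 of 23 tested genes were past 2-fold higher and 3, 3 and 4 past 2-fold lower, where 8.76%, 5.15% and 10.3% of all genes were higher and 4.3%, 4.74% and 7.16% lower. The list's medians were 0.49, -0.13 and 0.47 against 0.37, 0.20 and 0.33 over all genes. Maf stood out among the transcription factors at 7.53 and 27.9 times the CD8 level in the aged and aged+AA libraries and at 8.32 (4.17 to 16.3) times in the young library with counts under the minimum. Eomes stood at 1.28 (0.681 to 2.23), 0.492 (0.289 to 0.788) and 0.497 (0.277 to 0.825) times in the 3 libraries. In the chosen young cells 11 of the 14 Eomes UMIs lay in the 10 barcodes with natural killer or gamma-delta genes. Ctla4 was at 1.66 (0.852 to 2.99), 3.50 and 6.00 times the CD8 level. Cd160, an inhibitory receptor of CD8 and natural killer cells, was at 1.13 (0.470 to 2.33), 0.319 and 0.325 times.

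Most of the inhibitory and exhaustion genes had few UMIs in these cells, and the few with enough counts lay on both sides of CD4 T cells without Ccl5. Pdcd1 was found in 1, 1 and 4 cells, Lag3 in 1, 3 and 3, Havcr2 in 1, 3 and 1 and Tigit in 1, 1 and 2. Ctla4 was the most widely found receptor, in 30.8%, 47.4% and 30.9% of the cells, against 23.3%, 35.6% and 27.3% of CD4 T cells without Ccl5 and 12.9%, 15.1% and 9.47% of the CD8 cells. Its level relative to CD4 T cells without Ccl5 was 0.682 (0.360 to 1.18), 0.938 (0.681 to 1.27) and 1.05 (0.748 to 1.44). Tox, a transcription factor linked to exhaustion but also found in other T cells, was found in 46.2%, 24.6% and 25.0%, against 29.7%, 25.5% and 23.4%. Its ratio of levels was 1.06 (0.624 to 1.71), 0.994 (0.605 to 1.56) and 1.23 (0.779 to 1.89). All of these intervals hold both directions and are wide, so they do not show that the levels were alike.

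Of the 20 genes of that list, 7, 8 and 8 had 50 counts, and 0, 0 and 1 were past 2-fold higher and 1, 0 and 1 past 2-fold lower, namely Nr4a2 (5.38) higher and Cd200 (0.420) lower in the aged+AA library and Btla (0.376) lower in the young one, where 10.9%, 3.49% and 5.94% of all genes were higher and 8.9%, 3.93% and 3.49% lower. The medians were 0.13, -0.24 and 0.07, below those of all genes, and their sign changed with the scaling in the young and aged+AA libraries. At least 2 of Pdcd1, Lag3, Havcr2, Tigit, Ctla4, Cd160 and Cd244a were found together in 4, 8 and 9 cells. That was 15.4%, 14.0% and 13.2% of the chosen cells, against 0.607%, 5.18% and 2.15% of CD4 T cells without Ccl5. In the CD8 cells it was 6.77%, 7.83% and 5.35%. Without the 35 barcodes it was 1 of 16, 4 of 46 and 7 of 54 chosen cells. At least 1 of these receptors was found in 53.8%, 54.4% and 39.7% of the chosen cells. The shares were 24.1%, 40.3% and 29.8% in CD4 T cells without Ccl5 and 32.3%, 37.2% and 31.1% in the CD8 cells. Genes of the list below the minimum of 50 counts were in part higher in the chosen cells: Cd160 had 8, 4 and 5 UMIs (36.4, 12.7 and 14.0 CPM) against 1, 2 and 3 (0.201, 0.922 and 1.28 CPM). Without the 35 barcodes Cd160 had 4, 3 and 1 UMIs. Entpd1, the ectoenzyme CD39, had 8, 6 and 4 UMIs, ratios of 30.2 (9.19 to 106), 2.76 (0.879 to 7.54) and 3.28 (0.722 to 12.2). Lair1, an inhibitory collagen receptor, had 5, 9 and 8 UMIs, ratios of 11.3 (3.04 to 36.4), 2.49 (1.02 to 5.51) and 5.24 (1.80 to 14.7).

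The cells with Gzmk differed from the rest in a way that cut across both lists; this split was chosen after the values were seen and is a description of single cells, not of replicates. Eomes was found in 15 of 34 cells with Gzmk and 7 of 117 without. It was found in 2 of 5, 7 of 13 and 6 of 16 Gzmk cells, and in 3 of 21, 1 of 44 and 3 of 52 of the others. Without the 35 barcodes the counts were 14 of 31 and 2 of 85. Maf, a transcription factor of interleukin-10-producing and follicular helper cells, was found in 76.5% against 41.0%. Ctla4 was found in 70.6% against 27.4%. Depth was close in both, with medians of 4461.5 and 4613 UMIs, while Ccl5 was higher with Gzmk (median 56 against 29 UMIs).

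Of the rare receptors, Pdcd1 and Lag3 were counted by this split, and Havcr2 and Tigit were not. Of the 6 cells with Pdcd1, 5 had Gzmk, and of the 7 with Lag3, 5 had Gzmk. Il10, the anti-inflammatory cytokine gene, was found in 4 of 34 cells with Gzmk (3 aged and 1 aged+AA) and 0 of 117 without, which allows up to 2.56%. Ccr7, the receptor for homing to lymph nodes, was found in 8.82% with Gzmk and 33.3% without, and Ifng in 14.7% and 30.8%. Nkg7 was found in 33 of 34 and 89 of 117. Gzma was found at nearly the same share in both (20.6% and 22.2%). Among Ccl5-expressing CD8 T cells, Eomes was found in 44.8% with Gzmk and 34.8% without, Ctla4 in 28.3% and 8.57%, and Maf in 15.2% and 3.22%. Ifng ran the other way there, in 98 of 315 cells with Gzmk and 187 of 1866 without. The CD8 cells with Gzmk were shallower, with a median of 4558 UMIs against 7250.5.

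**Figure D3:**
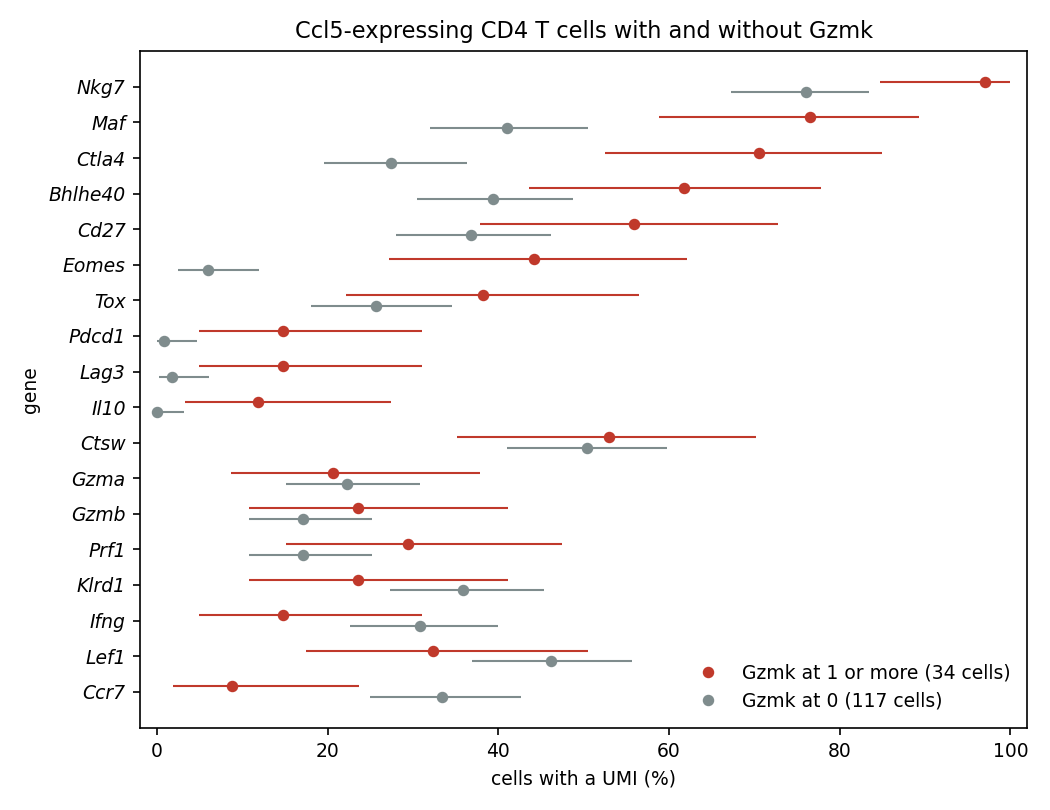
Percent of Ccl5-expressing CD4 T cells with at least 1 UMI of each gene, over the 3 libraries together, for the 34 cells with Gzmk (red) and the 117 without (grey); lines are exact binomial intervals for counting error over cells. Eomes (44.1% and 5.98%), Ctla4 (70.6% and 27.4%) and Maf (76.5% and 41.0%) were more frequent with Gzmk, Ccr7 (8.82% and 33.3%) less.

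Cells near the Ccl5 minimum differed from those with much Ccl5. Nkg7 was found in 36.1% of the 36 cells with 3 to 9 Ccl5 UMIs, 87.5% of the 48 with 10 to 49 and 100% of the 67 with 50 or more, and in 8.96% of the 335 conventional CD4 T cells with 1 or 2. Median depths were 4749, 4604, 4398 and 4653 UMIs. Eomes was found in 2.78%, 4.17% and 28.4% of the 3 upper bands, and Klrd1, a killer-lectin receptor chain, in 11.1%, 22.9% and 52.2%. Tnfsf8, the CD30 ligand of helper cells, ran the other way at 27.8%, 12.5% and 7.46%. By library, 76.4%, 40% and 47.1% of the Klrd1 UMIs lay in the barcodes with natural killer, gamma-delta or myeloid genes. The 29 cells without Nkg7 had a median of 5 Ccl5 UMIs against 55.5 in the 122 with it. The rule chose on Ccl5, so this is a description of who stands at its edge.

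Outside the cytotoxic genes, the cells carried the transcripts of antigen-experienced T cells. By the ranking rule, the 10 genes highest against CD4 T cells without Ccl5 in all 3 libraries were Gzma, Nkg7, Hopx, Il2rb, Lgals1, Ahnak, Crip1, Dnajc15, S100a4 and Epsti1. Il2rb, the shared receptor chain for interleukin-2 and interleukin-15, had ratios of 24.1 (18.0 to 32.2), 4.68 (3.63 to 6.00) and 4.54 (3.35 to 6.13). Hopx, a homeodomain protein of effector and memory T cells, had ratios of 13.2, 4.29 and 7.11, and S100a4, a calcium-binding protein of memory T cells, 22.1, 2.21 and 3.68. The ratio was largest in the young library for each of these 3 genes, where the comparison cells held least of them: S100a4 stood at 46.7, 568 and 291 CPM in CD4 T cells without Ccl5 and at 1030, 1255 and 1069 CPM in the chosen cells. Across the whole memory list, aged over young, the chosen cells had a median log2 ratio of 0.42 with 3 of 22 genes past 2-fold higher (Crip1, Lgals3 and Ly6c2), where 4.55% of all genes were higher in these cells and 1.97% lower. The CD4 T cells without Ccl5 had a median of 1.98 with 20 of 23, where 10.9% of all genes were higher and 1.79% lower. For aged+AA over aged the chosen cells had a median of -0.11 with none of 23 past 2-fold, where 0.997% of all genes were higher and 1.89% lower. The cells without Ccl5 had a median of -0.81 with 7 of 23 past 2-fold lower, where 0.529% of all genes were higher and 3.07% lower.

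Among the lowest by the same ranking were Igfbp4, Satb1, Rgs10, Alas2, Ifngr2, Ccr7, Tubb2a, Lef1 and Crlf3, of which Alas2 is a red-cell gene. Haemoglobin made up 0.0825%, 3.66% and 3.18% of UMIs in the chosen cells and 2.69%, 8.63% and 4.23% in CD4 T cells without Ccl5, and its part in the ratio of Alas2 was not tested. Igfbp4, high in naive CD4 T cells, had ratios of 0.395 (0.288 to 0.528), 0.251 (0.173 to 0.353) and 0.139 (0.0915 to 0.204). Lef1, a DNA-binding factor high in naive T cells, had ratios of 0.597, 0.450 and 0.345, and Ccr7 0.518, 0.281 and 0.247. Over the naive list all 15 genes were tested, none was past 2-fold higher, and 3, 9 and 8 were past 2-fold lower, where 8.9%, 3.93% and 3.49% of all genes were lower. The list's medians were -0.61, -1.05 and -0.99. Lef1 was still found in 69.2%, 31.6% and 42.6% of the cells.

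Of the memory and migration list, 20 of 22, 7 of 23 and 17 of 22 tested genes were past 2-fold higher and none past 2-fold lower, where 10.9%, 3.49% and 5.94% of all genes were higher and 8.9%, 3.93% and 3.49% lower, with medians of 2.49, 0.72 and 1.42. Of the effector transcription factors 10 of 13, 5 of 14 and 5 of 12 tested genes were past 2-fold higher and none lower, against the same shares. Id2, which represses the naive programme, had ratios of 5.04, 2.28 and 3.03. Tbx21 was found in 23.1%, 15.8% and 14.7% of the cells, Runx3 in 57.7%, 40.4% and 41.2%. Cxcr3, the receptor of type 1 helper cells for interferon-induced chemokines, was found in 10, 35 and 34 cells, with ratios of 19 (10.8 to 33.1), 3.21 (2.36 to 4.33) and 2.97 (2.17 to 4.03). Ifng was found in 42.3%, 24.6% and 23.5%, against 0.303%, 7.21% and 6.44% of CD4 T cells without Ccl5. Cytokine genes of other helper subsets were rarely found: Il4 was found in 3 aged cells, Il17a in 1 young cell and Il21 in none of the 151.

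Between the libraries, the cells' cytotoxic genes showed no common direction. For the aged over the young library 9 of the 24 genes had 50 counts, none was past 2-fold higher and 1 was past 2-fold lower, where 4.55% and 1.97% of all 1474 genes were past 2-fold higher and lower. The list's median log2 ratio was 0.05 against 0.04 over all genes, and it changed sign with the scaling (-0.01 with TMM factors). Nkg7 was 1086 CPM in the aged cells and 916 in the young cells, a ratio of 1.19 (0.994 to 1.42). Prf1 was 57.3 against 155 CPM, 0.370 (0.197 to 0.674), but 1 young cell held 20 of the 34 young UMIs. Gzma was 532 against 1002 CPM, 0.531 (0.431 to 0.652), with 217 of the 220 young UMIs in the 10 barcodes with natural killer or gamma-delta genes.

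For the aged+AA over the aged library 9 cytotoxic genes were tested and none was past 2-fold either way, where 0.997% and 1.89% of all 1906 genes were past 2-fold higher and lower. The list's median was 0.13 against -0.01, and -0.11 as a mean over cells. Nkg7 was 1306 against 1086 CPM, a ratio of 1.20 (1.04 to 1.39), Gzmb 176 against 127 CPM, 1.38 (0.914 to 2.11), and Gzmk 167 against 121 CPM, 1.38 (0.907 to 2.14). Gzma was 857 against 532 CPM, 1.61 (1.33 to 1.96), with the 2 richest cells at 57 UMIs each in the aged library and 61 each in the aged+AA library. The intervals of the granzymes lie over counts of which a few cells hold a large part, so they understate the error.

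Of the inhibitory list only Ctla4 and Vsir had enough counts to compare between libraries. Ctla4 was 59.2, 156 and 126 CPM. The aged level was 2.64 (1.41 to 5.30) times the young one, and the aged+AA level 0.805 (0.525 to 1.23) times the aged one. The share of cells with Ctla4 after thinning was 19.2%, 28.1% and 17.2%. Vsir, the checkpoint receptor VISTA, was 95.7, 185 and 112 CPM, ratios of 1.93 (1.15 to 3.35) and 0.604 (0.394 to 0.920). In CD4 T cells without Ccl5 Ctla4 stood at 86.9, 166 and 120 CPM, and Vsir at 59.3, 158 and 105, with the aged library highest for both genes there as well. Both comparisons share the aged library.

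Of the naive genes 12 were tested in the aged cells against the young ones, 3 were past 2-fold lower and none higher, against 1.97% lower and 4.55% higher over all genes, and the median was -0.79. In CD4 T cells without Ccl5 the naive median for the same libraries was -0.30, with 3 of 15 past 2-fold lower, against 1.79% of all genes there. Lef1 was 147 against 446 CPM, a ratio of 0.328 (0.226 to 0.470), and in CD4 T cells without Ccl5 it was 326 against 748 CPM. For aged+AA over aged the naive median was 0.25 over 10 genes and none was past 2-fold. Maf was 77.4, 245 and 195 CPM, a ratio of 3.17 (1.86 to 5.71) for aged over young, and in CD4 T cells without Ccl5 that ratio was 6.67 (5.51 to 8.11). Satb1 had a ratio of 0.405 and Ccr7 one of 0.356 for aged over young, and with Lef1 they were the 3 past 2-fold. Crip1, a LIM-domain protein of memory T cells, was 1330, 2873 and 2339 CPM.

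The largest ratios between libraries rested in good part on single barcodes. By the ranking rule the genes higher in the aged than in the young cells were Lyz2, Ifitm3, S100a9, Ccl3, Cd74 and Ccl4. For each gene taken by itself, the richest aged barcode, not shown to be the same one, held 84 of 97 Ccl3 UMIs, 94 of 125 Cd74 UMIs, 72 of 159 Ifitm3 UMIs and 48 of 89 S100a9 UMIs. Lyz2, the lysozyme of myeloid cells, had 626 UMIs in the aged cells and 0 in the young cells, at least 146-fold higher against a floor of 3 counts over the young cells. Lyz2 reached 441 UMIs in 1 aged barcode, and the 46 aged barcodes without genes of other lineages held 16. The aged library had Lyz2 widely, at 3876 CPM in its free RNA against 105 and 228 in the others, and in 37.7% of its B cells against 1.15% and 2.70%. Ccl4, a chemokine of activated killer cells, had 15, 224 and 28 UMIs. Of the aged UMIs 200 lay in 1 barcode, and 92.4% in the 11 aged barcodes with natural killer, gamma-delta or myeloid genes. The genes lower in the aged cells were Hist1h2ap, AY036118, Txnip, Gadd45b, Lef1 and Tsc22d3. Hist1h2ap, a histone gene of dividing cells, had 82 of its 92 young UMIs in 1 cell. Txnip, a glucose-responsive gene lost on activation, was 456 against 1572 CPM, a ratio of 0.290 (0.237 to 0.353). Except for Hist1h2ap, these genes moved alike between the libraries in CD4 T cells without Ccl5. The ratios there were 0.288 for Txnip, 0.223 for AY036118, 0.360 for Tsc22d3, 0.487 for Gadd45b and 0.436 for Lef1. Hist1h2ap stood there at 64.1 CPM in the aged and 52.7 CPM in the young library, with 44 of its 139 aged UMIs in 1 cell.

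In the aged+AA cells against the aged cells, the genes ranked higher included Tubb4b, Tuba1b, Nasp, Ier5 and Ifng, and those ranked lower S100a9, Ccl3, Ccl4, S100a8, Ifitm3 and Cd74. The direction of Cd74 turned to 1.17 as a mean over cells, and it was found in 23 of 68 aged+AA and 14 of 57 aged cells. Tubb4b, a tubulin, was 190 against 57.3 CPM, a ratio of 3.31 (1.95 to 5.92), and it was found in 33 of 68 and 16 of 57 cells with at most 5 UMIs in any cell. The young cells had 210 CPM of it. Ifng was 148 against 60.5 CPM, 2.44 (1.42 to 4.37), but the share of cells with it was 23.5% and 24.6%, and the 3 richest aged+AA cells held 43.4% of its UMIs.

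**Figure D4:**
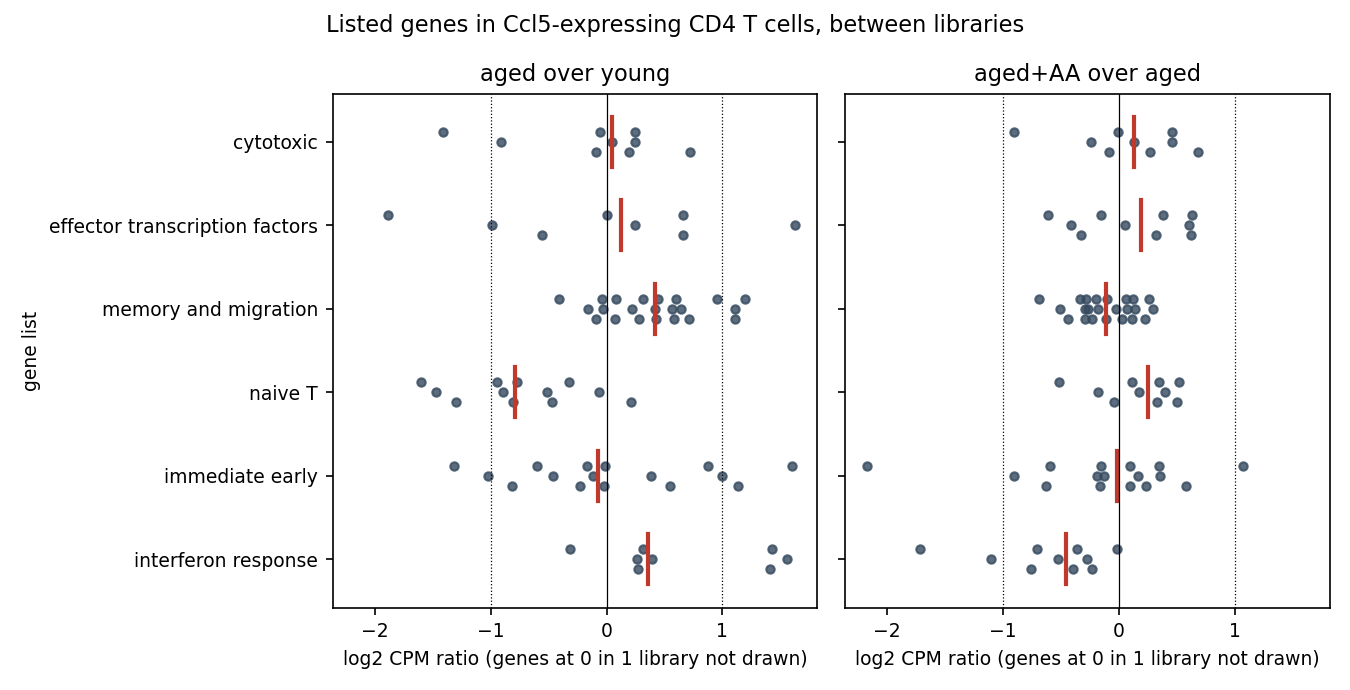
Log2 ratio of CPM in Ccl5-expressing CD4 T cells for the genes of 6 lists with 50 or more counts over both libraries, aged over young on the left and aged+AA over aged on the right; each point is 1 gene, red bars are medians of the drawn genes and dotted lines mark 2-fold. The naive genes lay mostly below 0 for aged over young (median -0.79), and the cytotoxic genes lay around 0 on both sides.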

How the data were processed

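The authors deposited 3 matrices of raw UMI counts with unfiltered barcodes. Per the file headers, Cell Ranger 4 wrote them. Seurat 3.1.0 and mm10 stand in the submitters' processing notes, with no role given. No annotation of cells by the authors was used. Cells, lists, gates and thresholds were chosen with earlier results of these data known.

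Counts were summed over the cells of a set and scaled to CPM (Python 3.11.15; scipy 1.17.1 for intervals). A gene was compared with 50 or more counts over both sets, and called past 2-fold at a CPM ratio of 2 or 0.5. Log2 ratios had 0.5 added to each count. Ratios carry 95% exact conditional intervals and shares exact binomial ones; this step was tested on simulated data. Sets under 20 cells were not compared. Doublets were predicted with Scrublet in scanpy 1.11.5 and kept. TMM factors came from edgeR 4.0.16, used for scaling alone. Sequences came from RefSeq promoter windows (GRCm38.p6), in which Ccl5, Nkg7, Gzmk and Eomes were looked up. Ccl5 had no window there, and the Eomes window, without a match, is not shown. Named genes were those of the cytotoxic and inhibitory lists, the 4 most abundant and most extreme of other lists, the top 10 each way against CD4 T cells without Ccl5 and the top 6 each way between libraries, ranked by the interval bound nearest to 1; genes of the Gzmk split, the Ccl5 bands and the other-lineage barcodes were also chosen after their values were seen. Some genes that the rule named are not reported here.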

Additional observations from a re-analysis of the deposited data

How the results depend on the processing

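No paired analysis was possible because each group was 1 library with no replicate numbers, and no library could be left out. The ratio of shares, aged over young, stayed between 2.54 and 5.56 under the other settings but was 1.76 with 2 Cd4 UMIs required and 1.97 over all kept barcodes. The ratio of aged+AA over aged was 1.59 with 2 Cd4 UMIs and 0.639 over all T cells, and otherwise lay between 0.889 and 1.27. The cytotoxic median against CD4 T cells without Ccl5 rose to 1.81 in the young library with a minimum of 20 counts per gene, and in the aged library to 1.62 with that minimum and 1.35 as a mean over cells. The aged+AA median fell from 1.67 to 0.92 without other-lineage barcodes, 1.04 with 2 Cd4 UMIs and 1.01 as a mean over cells. TMM factors moved the median of all genes by more than 0.1, from 0.29 to -0.11 in the young library, and the lists with it. Ratios against CD4 T cells without Ccl5 that turned were those of myeloid genes and Ctsc. In the aged+AA library Ifitm3 was 0.918 with 5 Ccl5 UMIs and 0.668 with 2 Cd4 UMIs, Lyz2 was 0 with either and without other-lineage barcodes, Ctsc was 0.551 with 2 Cd4 UMIs, S100a8 was 1.65 with 2 Cd4 UMIs and 2.36 without other-lineage barcodes, and S100a9 was 1.24 and 1.27. Lyz2 in the aged library was 0.782 without other-lineage barcodes. Cd74, aged+AA over aged, was 1.17 as a mean over cells. The cause was not tested, except that leaving out other-lineage barcodes removes myeloid UMIs by construction. Removing other-lineage barcodes was chosen after seeing the data. With fewer than 20 young cells (2 Cd4 UMIs, or barcodes with genes of other lineages left out) expression was not compared with the young library, and the inhibitory list had under 3 genes between libraries. Depth limits single genes: a gene at 0 in the 26 young cells may have been at up to 13.7 CPM by the floor of 3 counts. The cytotoxic median against CD4 T cells without Ccl5 stayed above 0 with free RNA subtracted and with TMM factors in each library.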

Other observations

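The interferon-response, immediate early and survival genes gave values that no comparison above uses. Against CD4 T cells without Ccl5, the interferon list had medians of -0.03, 0.21 and 0.11 over 16, 18 and 16 genes, and the immediate early list 0.19, 0.32 and -0.14 over 17 genes each. T-cell receptor variable genes were caught too rarely to read clones: a Trbv UMI was found in 2, 8 and 7 of the 26, 57 and 68 cells. Mki67, a gene of dividing cells, was found in 3, 4 and 2 cells.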
